A study of Mus musculus with 6 samples.

Results

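The proteasome is the cell's main machine for degrading proteins tagged with ubiquitin. Its barrel-shaped core particle is built from rings of alpha subunits, which form the gate, and rings of beta subunits, which carry the cutting sites inside. A regulatory particle on the end of the barrel recognises, unfolds and feeds in the substrate with a ring of ATPases and a lid of non-ATPase subunits. In lymphocytes and in cells exposed to interferon gamma, an alternative set of catalytic subunits replaces the constitutive ones to give the immunoproteasome, which favours peptides suited to MHC class I molecules. Activated CD8+ T cells, which grow and divide rapidly, carry both forms.

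The genes described here were all rows of the deposited expression table whose symbol begins with Psma to Psmg followed by a digit, 50 of 11175 listed genes. They comprised 14 constitutive core subunits (7 alpha and 7 beta), 5 immunoproteasome genes, 17 subunits of the regulatory particle (6 ATPases and 11 others), 3 assembly factors of the regulatory particle, 4 assembly factors of the core and 4 other activator or inhibitor genes. The remaining 3 rows matched by name only: Psma5-ps is a processed pseudogene, while Psmc3ip, a meiotic recombination factor, and Psme3ip1, which binds the activator Psme3, are not proteasome subunits. Psma8 and Psmb11, the testis and thymus forms, also fit the naming rule but were not among the listed genes. All 50 had a mean of at least 1 FPKM (fragments scaled to transcript length and library size), the level needed to be tested, so the counts below cover every row.

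RNA came from wild-type (WT) mouse splenic CD8+ T cells that had been stimulated for 48 h with antibodies to CD3 and CD28. The control group of 3 libraries received no further agent, and the DOPAC group of 3 libraries was stimulated in the presence of DOPAC, a breakdown product of dopamine. The labels give no dose, and do not say whether replicates were separate animals or cultures, so a p-value here reflects only how far these libraries scatter, a scatter that could be technical. The comparison asks whether DOPAC changed the transcript levels of the degradation machinery.

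FPKM summed to between 283818 and 316035 per library. The files hold no read counts, so depth is unknown. The T cell genes Cd3d, Cd3e, Cd3g, Cd8a, Cd8b1, Trac, Lck and Cd2 were all listed, and 0 of 4 CD4 T cell markers were. Control replicate 1 stood apart, with a correlation across genes of 0.899 to 0.917 with the other 5 libraries, which gave 0.974 to 0.992 among themselves (Pearson's r of log2(FPKM + 1); genes are not independent replicates). Values without it are given for the main results that it moves. Of 9 macrophage and dendritic cell markers 2 were listed, Lyz2 and Cd68, which summed to between 14.2 and 33.8 FPKM in the controls and between 4.45 and 12.4 FPKM with DOPAC, while Csf1r, Adgre1, Itgam, Itgax, Cd14, Flt3 and Siglech were not. Of 4 fibroblast markers 3 were listed, which summed to between 25.7 and 27.9 FPKM in the controls. In DOPAC replicates 1, 2 and 3 they summed to 0.330, 15.5 and 16.0 FPKM, so the low end was DOPAC replicate 1 alone. The B cell list had 2 of 7 listed (127 to 156 FPKM in sum, without Cd79a or Ms4a1). Nearly all of that sum was Ighm, with a mean of 145 FPKM, while Cd79b had a mean of 1.91 FPKM. The NK cell list had 1 of 4, Eomes (2.92 to 4.93 FPKM), and the erythroid list 2 of 6 (0.280 to 10.4 FPKM). The part of these cells in the results was not tested. In bulk RNA, fewer cells of a type and less RNA per cell cannot be told apart.

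Short stretches around start sites are shown for 5 genes, because proteasome genes are known targets of the transcription factor NRF1, which binds antioxidant response elements, and because the activator gene Psme1 is known to be induced by interferons. Of the 50 symbols 42 matched a RefSeq promoter (GRCm38.p6), defined as 250 bases before to 50 after a start site, with 46 promoters in all. The element core TGACNNNGC, searched on both strands, was in 6 of these 46 (13.0%) and in 12.4% of all 32851 promoters. The interferon-stimulated response element core (GAAA, any 2 bases, GAAA), also on both strands, was in 5 of the 46 (10.9%) and in 3.44% of all. These 5 were Psmb3, Psmd4, Psmd9, Psme1 and Psmg4, of which only Psme1 is an immunoproteasome gene. A match is a description of letters and not evidence of binding. Capitals mark the match, and each stretch reads along its gene's strand. Psmb5 and Psmb6 hold the antioxidant element core as written and Psmc6 its reverse complement, while Psmb3 and Psme1 hold the reverse complement of the interferon element core. In Psme1 the match lies just after the start site, in Psmb5, Psmb6, Psmc6 and Psmb3 before it.
Psmb5, chr14:54618009-54618067, minus strand: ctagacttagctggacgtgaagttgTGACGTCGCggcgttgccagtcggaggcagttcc
Psmb6, chr11:70525323-70525356, plus strand: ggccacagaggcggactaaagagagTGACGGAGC
Psmc6, chr14:45329574-45329630, plus strand: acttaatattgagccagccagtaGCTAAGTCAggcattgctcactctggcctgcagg
Psmb3, chr11:97703246-97703305, plus strand: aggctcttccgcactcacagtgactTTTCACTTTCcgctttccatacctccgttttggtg
Psme1, chr14:55578493-55578522, plus strand: cgagctgtgcTTTCGCTTTCccttcccgct

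Proteasome transcripts were abundant and their total was close in both groups. The 50 rows made up 0.983%, 0.850% and 0.948% of all listed FPKM in Control replicates 1, 2 and 3, and 0.878%, 0.886% and 0.898% in the DOPAC replicates. The DOPAC libraries lay inside the range of the controls. None of the 50 passed the threshold of limma's moderated test (Benjamini-Hochberg adjusted p under 0.05 over 10887 genes; lowest adjusted p 0.801). The same held for the whole table, of which 0% was called. At an unadjusted p under 0.05 there was 1 of the 50 (Psmc6), beside 4.19% of all genes. That made 1 of the 50 higher (2.73% of all genes) and 0 lower (1.46%). The median log2 fold change was 0.0032 over the 50 and 0.066 over all genes tested. Here and below a fold change is DOPAC against control on the log2(FPKM + 1) scale. Positive values were found for 26 of the 50 and for 62.1% of all genes. Without Control replicate 1 the positive count was 33 of the 50, beside 47.3% of all genes, and the medians were 0.069 and -0.011. There 0 of the 50 passed the threshold, beside 0.0184% of all genes (2 genes). At an unadjusted p under 0.05 there were then 2 higher (Psmc6 and Psmf1), beside 5.57% of all genes, and 1 lower (Psmd3), beside 8.89%. Each 95% interval reflects the scatter of these libraries, which could be technical, so it does not bound the effect of DOPAC beyond them. Taken gene by gene, the interval lay within a log2 change of 1 in either direction in 49 of the 50 genes, and within 0.5 in 28. The exception was the assembly factor gene Psmg4, whose interval reached -1.20. Without Control replicate 1 the interval lay within 0.5 for 48 of the 50.

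**Figure D1:**
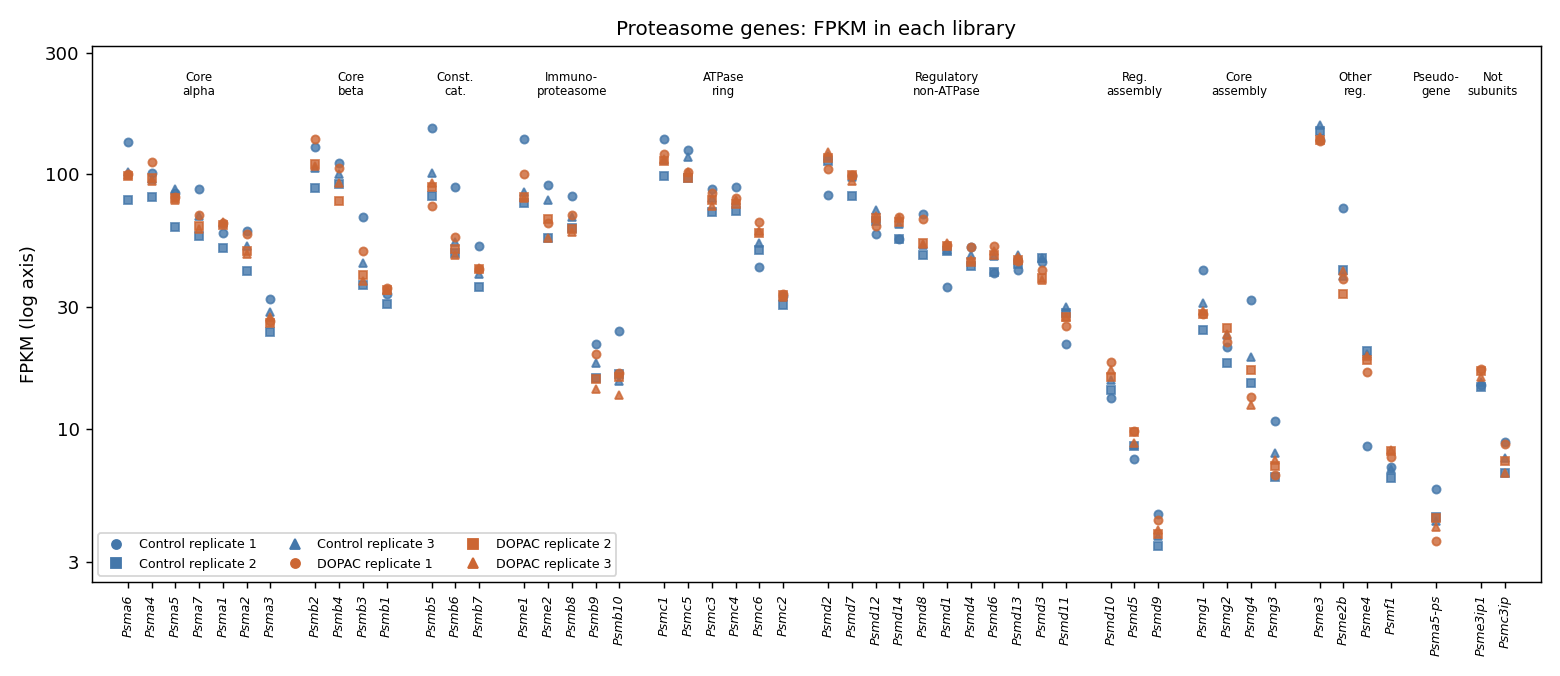
FPKM of the 50 proteasome rows (log axis) in each of the 6 libraries, grouped by role and ordered by mean level; blue is control and orange DOPAC, and the marker shape gives the replicate number. Mean levels run from 142 FPKM for Psme3 to 4.01 FPKM for Psmd9, and Control replicate 1 (blue circles) is the highest library in 27 of the 50 rows.

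The alpha subunits form the outer rings of the core. Their mean levels ran from 27.5 FPKM (Psma3) to 102 FPKM (Psma6), and no alpha subunit had an unadjusted p under 0.05. Psma6 measured 134, 79.2 and 103 FPKM in the controls and 100.1, 98.8 and 99.4 FPKM with DOPAC. The DOPAC libraries were tightly grouped between the extremes of the controls. Psma3 measured 32.4, 24.1 and 28.7 FPKM in the controls and 26.5, 26.1 and 27.5 FPKM with DOPAC, again inside the control range. Its level is uncertain, since 4 other GENCODE genes carry stretches of at least 200 bases with at least 95% identity to it. The 7 genes had a median log2 fold change of 0.040 (4 positive) and 0.14 without Control replicate 1 (7 positive), with values between -0.13 and 0.15 in all 6 libraries.

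Among the beta subunits without a catalytic site (Psmb1, Psmb2, Psmb3 and Psmb4), the median was -0.027 (2 of 4 positive), or 0.085 (3 of 4 positive) without Control replicate 1. Psmb2 was the most abundant, at 128, 88.5 and 106 FPKM in the controls and 138, 110.2 and 107.6 FPKM with DOPAC. Psmb1 was the lowest, at 34.0, 31.0 and 35.1 FPKM and 35.9, 35.1 and 35.1 FPKM, and had the interval from -0.19 to 0.36 around a log2 fold change of 0.084. For both genes the groups overlapped.

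The constitutive catalytic subunits are Psmb5 (chymotrypsin-like activity), Psmb6 (caspase-like) and Psmb7 (trypsin-like). Psmb5 (ENSMUSG00000022193; GENCODE M21 on GRCm38, chromosome 14, 54614119 to 54618022, minus strand) measured 152, 82.4 and 101 FPKM in the controls and 75.0, 89.0 and 93.0 FPKM with DOPAC. The fitted log2 fold change of Psmb5 was -0.34, with a 95% interval of -0.90 to 0.22 and an adjusted p of 0.801 by limma. Psmb6 (ENSMUSG00000018286; chromosome 11, 70525367 to 70527858, plus strand) measured 89.5, 48.9 and 54.2 FPKM in the controls and 57.0, 51.0 and 48.1 FPKM with DOPAC, which gave a fitted change of -0.25 on the log2 scale, 95% interval -0.81 to 0.31. In both genes Control replicate 1 was far above the other 5 libraries, which overlapped, and without it the values were -0.098 for Psmb5 and 0.013 for Psmb6. Psmb7 (ENSMUSG00000026750; chromosome 2, 38588036 to 38644087, minus strand) measured 52.3, 36.2 and 40.6 FPKM and then 42.5, 42.5 and 42.9 FPKM. For Psmb7 the log2 fold change was 0.0027 (95% interval -0.38 to 0.38), or 0.15 without Control replicate 1. Psmb5 shares near-identical sequence with the pseudogene Gm3375, and the exons of Psmb7 overlap Nek6 on the other strand, which these unstranded libraries do not separate.

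All 5 immunoproteasome genes had negative log2 fold changes, and none passed the test. Their median was -0.15 (range -0.25 to -0.15), and all 5 were highest in Control replicate 1. Without that library the median was -0.038, with 4 of 5 negative. Without Control replicate 2 it was -0.31 with all 5 negative, and without DOPAC replicate 1 it was -0.26. The 5 stayed negative with quantile normalization, with equal library medians and with the trend on gene length removed, while with library weights 1 (Psme1) was positive. As a sum, the 5 genes measured 356, 227 and 267 FPKM in the controls and 270.0, 241 and 225 FPKM with DOPAC, so that the groups overlapped.

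Psmb8, the inducible counterpart of Psmb5 (ENSMUSG00000024338; chromosome 17, 34197721 to 34201454, plus strand), measured 82.4, 61.5 and 68.2 FPKM in the controls and 69.0, 61.2 and 59.6 FPKM with DOPAC. For Psmb8 the log2 fold change was -0.15 (95% interval -0.50 to 0.20), or -0.036 without Control replicate 1. Psmb9, the counterpart of Psmb6 (ENSMUSG00000096727; chromosome 17, 34181987 to 34187764, minus strand), measured 21.6, 15.8 and 18.1 FPKM and 19.7, 15.7 and 14.4 FPKM, a log2 fold change of -0.15 (95% interval -0.56 to 0.27), or -0.038 without that library. It lies head to head with the peptide transporter gene Tap1 and overlaps its exons by 212 bp. Psmb10, the counterpart of Psmb7 (ENSMUSG00000031897; chromosome 8, 105935735 to 105938444, minus strand), measured 24.2, 16.4 and 15.5 FPKM and 16.5, 15.9 and 13.6 FPKM, which gave a fitted change of -0.25 on the log2 scale, 95% interval -0.71 to 0.21, or -0.057 without that library. In each of these genes the groups overlapped. The mean of Psmb8, 67.0 FPKM, was above those of Psmb9 (17.5 FPKM) and Psmb10 (17.02 FPKM), though the lengths used for FPKM are not given.

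Psme1 and Psme2 encode the subunits of the interferon-inducible activator ring that opens the core gate. Psme1 (chromosome 14, 55578123 to 55581529, plus strand) measured 137, 77.0 and 85.7 FPKM in the controls and 100.5, 81.2 and 80.7 FPKM with DOPAC. The log2 fold change of Psme1 was -0.15 (95% interval -0.71 to 0.41), or 0.098 without Control replicate 1. Psme2 (chromosome 14, 55587441 to 55591113, minus strand) measured 90.9, 56.3 and 79.3 FPKM and 64.4, 67.0 and 56.4 FPKM, a log2 fold change of -0.24 (95% interval -0.71 to 0.22), or -0.097 without that library. The Psme1 to Psme2 ratio was 1.32 ± 0.22 (SD, n = 3) among controls and 1.40 ± 0.18 (SD, n = 3) among DOPAC libraries, a difference smaller than the spread. The near-identical copy Psme2b, on chromosome 11, was listed at 45.0 FPKM on average, so reads may have been divided between it and Psme2. Psme1 shares near-identical sequence with Gm7776, so the level of the ratio is uncertain on both sides.

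Catalytic subunits compete for the same place in the ring, so their ratio within a library was compared. The lengths by which FPKM were scaled are not given, and exons of Psmb7, Psmb8 and Psmb9 overlap genes on the other strand. The level of a ratio, or of a share of FPKM, is therefore uncertain and is not a measure of subunit composition. The Psmb8 to Psmb5 ratio was 0.540, 0.746 and 0.673 among controls and 0.920, 0.688 and 0.642 among DOPAC libraries. Control replicate 1 was the lowest and DOPAC replicate 1 the highest, and the other 4 libraries lay close together. The log2 ratio differed by 0.19 between the group means, by 0.063 without Control replicate 1, by 0.037 without DOPAC replicate 1 and by 0.032 with the length trend removed. The Psmb9 to Psmb6 ratio was 0.241, 0.323 and 0.334 among controls and 0.345, 0.308 and 0.299 among DOPAC libraries. Its log2 difference of 0.096 turned to -0.054 without Control replicate 1. The Psmb10 to Psmb7 ratio was 0.463, 0.455 and 0.381 among controls and 0.389, 0.375 and 0.317 among DOPAC libraries, the closest of the 3 pairs to a separation, with 1 DOPAC library above the lowest control. Here the log2 ratio differed by -0.26, more than the SD of either group (0.16 in both), by -0.21 without Control replicate 1, and by -0.16 with the length trend removed. The check of pairing treats same-numbered libraries as pairs, but no label ties the numbers together. Deviations of Control replicate 2 correlated at 0.24 with DOPAC replicate 3 and at 0.16 with DOPAC replicate 2. The paired differences and permutation tests were added after seeing the data. Within same-numbered libraries the Psmb10 to Psmb7 differences were -0.25, -0.28 and -0.27. The exact two-sided permutation test gave p = 0.25 within pairs, the smallest that 3 pairs allow, and p = 0.20 without pairing, where 0.10 is the smallest. Over the 4 quantities compared here the adjusted p was 1 within pairs and 0.80 without. For Psmb8 to Psmb5 the paired differences were 0.77, -0.12 and -0.070, and for Psmb9 to Psmb6 they were 0.52, -0.070 and -0.16, so that the first pair went the other way. The inducible subunits made up 33.5 ± 2.84% (SD, n = 3) of the summed FPKM of the 6 catalytic subunits among controls and 34.5 ± 2.77% (SD, n = 3) among DOPAC libraries. That difference of 1.07 percentage points was smaller than either SD and turned to -0.496 points without Control replicate 1.

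**Figure D2:**
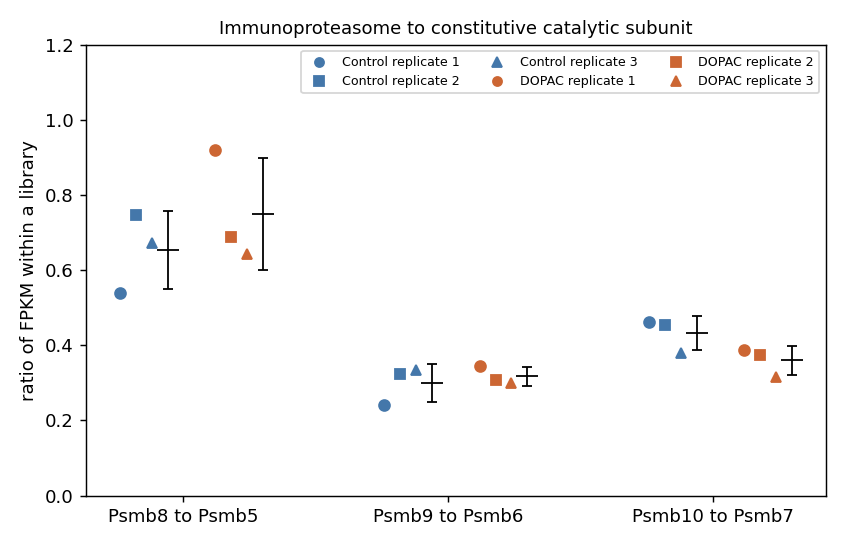
Ratio of FPKM of each immunoproteasome catalytic subunit to its constitutive counterpart within a library, for 3 pairs (x axis); coloured points are libraries, and black bars are the group mean with its SD (n = 3). The groups overlap in every pair, with means of 0.653 and 0.750 for Psmb8 to Psmb5, 0.299 and 0.317 for Psmb9 to Psmb6, and 0.433 and 0.360 for Psmb10 to Psmb7 in control and DOPAC libraries.

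Of the regulatory particle's 17 subunits 4 were higher in every DOPAC library than in any control, and none passed the test. Over all 50 rows the groups did not overlap in 8 with DOPAC higher, beside 12.4% of all genes, and in 1 with DOPAC lower, beside 4.80% of all genes. The 8 rows are 16% of the 50, near the share of all genes. Their ratios of means ran from 1.12 to 1.24, and in 5 of them the lowest library was Control replicate 1. The 8 were the ATPase Psmc6, the non-ATPase subunits Psmd1, Psmd6 and Psmd14, the assembly factors Psmd5 and Psmd10, the inhibitor Psmf1 and the name match Psme3ip1. All had a limma adjusted p of 0.801.

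Psmc6, a subunit of the ATPase ring that unfolds substrates (ENSMUSG00000021832; chromosome 14, 45329788 to 45349705, plus strand), measured 43.4, 50.3 and 53.9 FPKM in the controls and 65.0, 58.9 and 59.8 FPKM with DOPAC. The Psmc6 log2 fold change of 0.31 (95% interval 0.0042 to 0.62) was the highest of the 50, and 0.23 without Control replicate 1. Its unadjusted limma p was 0.048, and 0.083 with the replicate number as a block. The other 5 ATPases lay around 0, between -0.16 (Psmc5) and 0.052 (Psmc2), or -0.083 and 0.13 (Psmc1) without Control replicate 1. Psmc1, the most abundant ATPase, measured 138, 98.4 and 114 FPKM in the controls and 119.9, 112.9 and 115.0 FPKM with DOPAC. Psmc2, the lowest, measured 33.3, 30.7 and 33.0 FPKM and 33.8, 33.7 and 33.1 FPKM, nearly level across the 6 libraries.

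Of the 11 non-ATPase subunits 9 had positive values and 2 negative, with a median of 0.054. With equal library medians and with the length trend removed 5 of the 11 were positive, and without Control replicate 1 it was 7. Psmd14, the deubiquitinase that cuts ubiquitin chains from substrates at the entrance, measured 55.9, 55.6 and 64.0 FPKM in the controls and 68.1, 65.2 and 67.7 FPKM with DOPAC (log2 fold change 0.20, 95% interval -0.082 to 0.47). Psmd6, a lid subunit, measured 41.1, 41.4 and 47.9 FPKM and 52.1, 48.1 and 49.8 FPKM (0.20, 95% interval -0.087 to 0.49). The highest control of Psmd6 and the lowest DOPAC library were almost equal, so the gap between the groups was narrow. Psmd1, a scaffold at the base of the particle, measured 35.9, 50.2 and 50.2 FPKM and 52.6, 52.2 and 54.0 FPKM. Its log2 fold change of 0.23 was 0.074 without Control replicate 1, the low library.

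Psmd3, another lid subunit (ENSMUSG00000017221; chromosome 11, 98682554 to 98695979, plus strand), was the one row with DOPAC lower and no overlap. It measured 45.1, 46.8 and 47.1 FPKM in the controls and 41.9, 39.2 and 38.6 FPKM with DOPAC. The fitted log2 fold change for Psmd3 was -0.21 (95% interval -0.47 to 0.051, adjusted p = 0.801 by limma) and -0.23 without Control replicate 1 (95% interval -0.40 to -0.064; adjusted p = 0.295). Unlike most rows, Psmd3 had close values in the 3 controls. Psmd2, the most abundant non-ATPase subunit, measured 83.4, 113 and 118 FPKM and 105, 116 and 122 FPKM, and its value of 0.14 turned to -0.020 without Control replicate 1. Psmd11, the lowest, measured 21.5, 28.6 and 30.2 FPKM and 25.4, 27.4 and 27.4 FPKM, with 0.012 turning to -0.13.

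**Figure D3:**
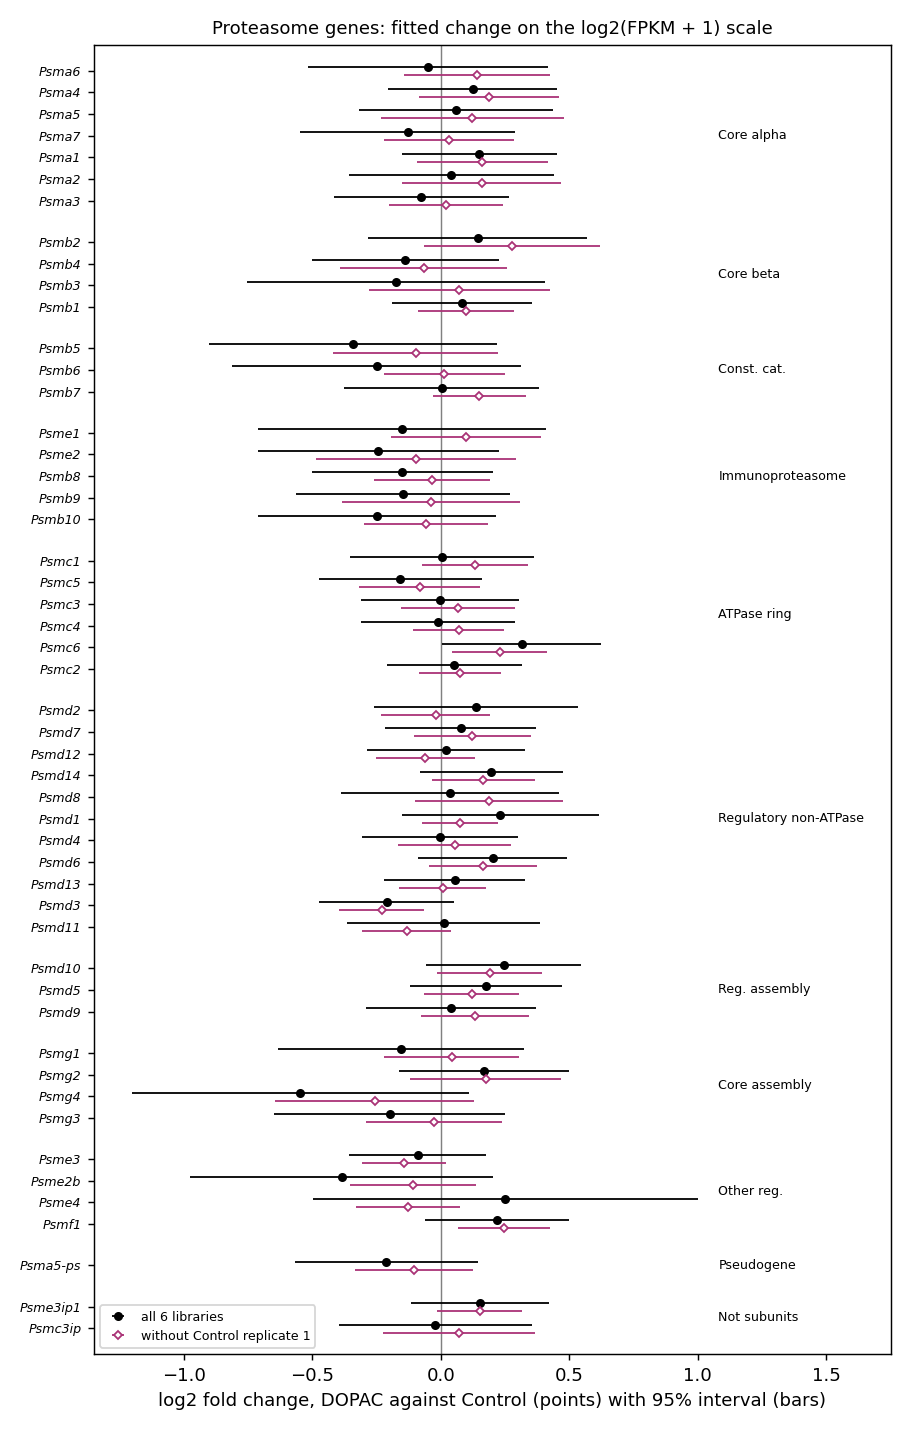
Fitted log2 fold change of each of the 50 rows (x axis, DOPAC against control on the log2(FPKM + 1) scale) with its 95% interval, in black from all 6 libraries and in purple without Control replicate 1. With all 6 libraries 49 of the 50 intervals include 0, the exception being Psmc6 (0.0042 to 0.62), and without that library 47 do, the exceptions being Psmc6, Psmf1 and Psmd3.

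Set side by side, the 17 regulatory subunits had a median of 55.9, 50.3 and 53.9 FPKM in the controls and 65.0, 58.9 and 59.8 FPKM with DOPAC, while the 14 constitutive core subunits had 86.2, 54.4 and 66.3 FPKM and 67.0, 63.0 and 62.9 FPKM. The ratio of these medians was 0.648, 0.924 and 0.813 among controls and 0.969, 0.936 and 0.951 among DOPAC libraries. In 5 of the 6 libraries the regulatory median is the value of Psmc6 itself, so neither the median nor the ratio adds to the result for that gene. Summed over the 17 subunits, the regulatory particle measured 1119, 1040 and 1154 FPKM in the controls and 1158, 1119 and 1134 FPKM with DOPAC, and the groups overlapped.

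Dedicated chaperones assemble the proteasome. For the regulatory particle Psmd5, Psmd9 and Psmd10 all had positive values (median 0.17, or 0.029 with the length trend removed), and none passed the test. Psmd10, also known as the oncoprotein gankyrin (X chromosome, 140948429 to 140956728, minus strand), measured 13.2, 14.3 and 15.5 FPKM in the controls and 18.3, 16.0 and 17.1 FPKM with DOPAC, a log2 fold change of 0.24 (95% interval -0.058 to 0.55). Psmd5 measured 7.59, 8.53 and 8.67 FPKM and 9.82, 9.73 and 8.79 FPKM, with a log2 fold change of 0.17. Psmd9 was the lowest of the 50 rows, at 4.60, 3.45 and 3.80 FPKM and 4.36, 3.85 and 3.99 FPKM, and its exons overlap Gm26745 by 1849 bp on the other strand.

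The core assembly factors Psmg1 to Psmg4, which bring the alpha ring together, had a median of -0.18 with 1 of 4 positive, and 0.0081 with 2 of 4 positive without Control replicate 1. Psmg4 (ENSMUSG00000071451; chromosome 13, 34162964 to 34178173, plus strand) measured 32.0, 15.2 and 19.2 FPKM in the controls and 13.3, 17.003 and 12.4 FPKM with DOPAC. Its log2 fold change of -0.55 (95% interval -1.20 to 0.11; limma adjusted p = 0.801) was the largest in size of the 50, and -0.26 without Control replicate 1. Psmg1, the most abundant, measured 42.2, 24.5 and 31.1 FPKM and 28.3, 28.2 and 29.0 FPKM. Psmg3 was the lowest, at 10.8, 6.46 and 8.04 FPKM and 6.55, 7.13 and 7.53 FPKM. In Psmg1, Psmg3 and Psmg4 Control replicate 1 was the highest library.

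Among the other regulators Psme3, the nuclear activator that works without ubiquitin, was the most abundant proteasome gene, at 136, 148 and 157 FPKM in the controls and 136, 136 and 141 FPKM with DOPAC. For Psme3 the log2 fold change was -0.091 (95% interval -0.36 to 0.18), or -0.14 without Control replicate 1. Psme4, another nuclear activator, was at 20.2 and 19.7 FPKM in Control replicates 2 and 3, at 16.7, 18.6 and 19.4 FPKM with DOPAC, and at only 8.56 FPKM for Control replicate 1. Its value of 0.25 turned to -0.13 without that library. Psmf1, which encodes a proteasome inhibitor, measured 7.09, 6.38 and 6.94 FPKM and 7.74, 8.21 and 8.26 FPKM. For Psmf1 the log2 fold change was 0.22 (95% interval -0.064 to 0.50) and 0.24 without Control replicate 1 (95% interval 0.065 to 0.42; limma adjusted p = 0.295). Psme2b measured 73.7, 42.1 and 39.9 FPKM and 38.8, 33.8 and 41.6 FPKM, a log2 fold change of -0.39 (95% interval -0.98 to 0.20), or -0.11 without Control replicate 1. Of the name matches, Psma5-ps was at 4.47 FPKM and Psmc3ip at 7.70 FPKM on average, with log2 fold changes of -0.21 and -0.021, or -0.10 and 0.070 without Control replicate 1. Psme3ip1 measured 14.9, 14.6 and 15.3 FPKM in the controls and 17.2, 16.9 and 16.0 FPKM with DOPAC, a log2 fold change of 0.15.

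The position of Control replicate 1 among proteasome genes moved with their summed exon length. In the 17 genes of up to 2000 bp it lay a median of 0.38 above the mean of the other 5 libraries on the log2(FPKM + 1) scale, beside 0.34 for all genes of that length. Over 2000 and up to 4000 bp the median was 0.17 for 23 proteasome genes and -0.12 for all, and over 4000 bp it was -0.15 for 10 and -0.51 for all. The fitted changes followed the other way: the median log2 fold change was -0.15, 0.0027 and 0.11 in the 3 length classes, and 0.013, 0.072 and 0.074 without that library. The short genes Psmg4, Psmb5 and Psme2b and the long genes Psmd1 and Psme4 are at the ends of the range for Control replicate 1. It lay above the mean of the other 5 in 15 of the 17 short genes and in 3 of the 10 long ones. Against the trend were the long gene Psmd9 (7248 bp), at 0.20, and the short gene Psmd10 (1469 bp), at -0.28. The median exon length was 1872 bp for the constitutive catalytic subunits, 2209 bp for the immunoproteasome genes and 3057 bp for the non-ATPase subunits.

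**Figure D4:**
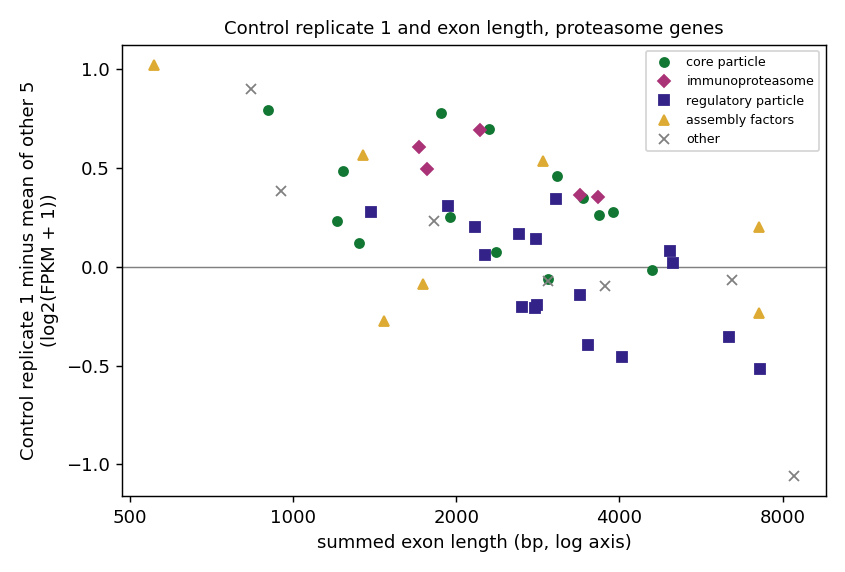
Difference of Control replicate 1 from the mean of the other 5 libraries on the log2(FPKM + 1) scale (y axis) against summed exon length in bp (log x axis), 1 point per proteasome row, coloured by role. Points run from 1.02 for Psmg4 (555 bp) to -1.06 for Psme4 (8382 bp).

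Genes that act with the proteasome had 0 calls in each of the lists, which was certain since 0 of all 10887 genes were called. The counts of positive values in these lists stand beside 62.1% of all genes. Of 10 measured partners outside the naming rule 4 were positive and 6 negative (median -0.026, or -0.016 without Control replicate 1). Adrm1, a ubiquitin receptor of the regulatory particle, measured 32.1, 26.7 and 27.1 FPKM in the controls and 24.4, 20.3 and 22.8 FPKM with DOPAC. The fitted Adrm1 log2 fold change was -0.33, with a 95% interval of -0.66 to -0.0052 and an adjusted p of 0.801 by limma, or -0.25 without Control replicate 1, and the groups did not overlap. Ecpas, a proteasome adaptor, had 0.45 with all libraries and 0.066 without Control replicate 1, where it was at 9.40 FPKM against at least 22.0 FPKM elsewhere. Pomp, the chaperone that matures the core, had -0.16 (95% interval -0.59 to 0.27), or 0.0069 without that library.

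The pathway by which NRF1 (Nfe2l1) restores proteasome genes when the proteasome is blocked had 6 of 8 genes positive, with a median of 0.17, and -0.047 without Control replicate 1. Nfe2l1 itself measured 16.4, 24.5 and 23.8 FPKM in the controls and 22.5, 24.7 and 24.4 FPKM with DOPAC. Sel1l, of the endoplasmic reticulum degradation complex, had a log2 fold change of 0.35, and Ngly1, which processes NRF1, of 0.27. Without Control replicate 1 these were 0.10 and 0.0089. Control replicate 1 was the lowest library in all 3 genes.

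Interferon gamma induces the immunoproteasome, and its own gene had higher values with DOPAC. Ifng measured 78.6, 80.1 and 82.9 FPKM in the controls and 188, 98.8 and 132 FPKM with DOPAC (log2 fold change 0.74, 95% interval 0.19 to 1.29; limma adjusted p = 0.801), with no overlap. In the same libraries Psmb8, Psmb9, Psmb10, Psme1 and Psme2 had the negative values given above, but all 5 were highest in Control replicate 1. Without that library their median was -0.038, with 4 negative and Psme1 at 0.098, and Ifng was at 0.72. A link between Ifng and these genes was not tested. Over the 12 genes of the interferon gamma axis 10 were positive with a median of 0.22, and the median was -0.015 without Control replicate 1. Irf1 had -0.0051 and Ifngr1 0.42 (0.29 without that library).

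Class I peptide loading genes, which use the proteasome's products, had 6 of 11 positive and a median of 0.036, or 0.0055 without Control replicate 1. Tap1, which shares its upstream region with Psmb9, measured 34.0, 52.0 and 47.8 FPKM in the controls and 54.9, 48.6 and 47.0 FPKM with DOPAC, a log2 fold change of 0.19 (95% interval -0.25 to 0.62), or 0.0055 without Control replicate 1. The class I heavy chain gene H2-D1 had -0.23 (95% interval -0.54 to 0.083), and the chaperone gene Canx 0.33, or 0.11 without that library. For ubiquitin genes and shuttle factors 5 of 11 were positive (median -0.017, or -0.053 without that library). The activating enzyme gene Uba6 was at 4.81 FPKM in Control replicate 1, with 11.7 to 14.1 FPKM elsewhere.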

How the data were processed

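RNA-seq of 6 libraries was used. The labels' protocols name TRIzol for RNA, SMART-Seq HT for cDNA and Nextera XT for libraries. These kits keep no strand information. The tools listed in the submitters' processing notes are cutadapt 1.9 and HISAT2 2.2.1, and the build is mm10. How FPKM were estimated, and with which annotation, is not given in the sources used here. The authors deposited a table of FPKM by gene, with 1 column per library per the file headers, with their log2 fold change and p-values, used only where their table is named. Depth is unknown.

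Groups came from the library names. R 4.3.3 with limma 3.58.1 fitted DOPAC against control on log2(FPKM + 1) with a mean-variance trend to the 10887 genes with a mean of at least 1 FPKM, with Benjamini-Hochberg adjustment over all of them at 0.05, two-sided. The fit was tested on simulated data with known changes. Genes were given full values if catalytic or immunoproteasome, highest or lowest of their role, among the 3 smallest p in either direction, or without overlap between groups; from other lists, the 2 smallest p and a few fixed genes, of which some are not reported here. The members and lists were chosen with earlier results of these data known. Exon lengths, positions and copies (BLAST of GENCODE M21 transcripts) used GRCm38, the mm10 build. Near-identical stretches in other genes were found for 12 of the 50 rows, whose levels are uncertain. They were Psma2, Psma3, Psma4, Psma5, Psmb3, Psmb5, Psmc1, Psmd2, Psmd11, Psme1, Psme2 and Psme2b. Figures used Python 3.11.15 and matplotlib 3.10.9.

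Both groups carry replicate numbers 1 to 3. Deviations from group means correlated between same-numbered libraries at 0.34, 0.16 and 0.28 across genes. Each exceeded 0.1, the level taken as pairing, but the deviations of Control replicate 2 were closer to those of DOPAC replicate 3 (0.24), and the labels tie no number to an animal or a day. The replicate block was fitted as an alternative, beside other pseudocounts, filters, scalings, variance models, library weights and leaving out each library. The paired differences and permutation tests of the catalytic ratios were added after seeing the data.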

Additional observations from a re-analysis of the deposited data

How the results depend on the processing

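With every alternative, 0 of the 50 proteasome genes passed the threshold. Of the 273 summary values 264 moved by less than the spread between replicates or, for counts, by under 1.5 times. That spread includes Control replicate 1. The replicate block and the robust variance model cannot move a median log2 fold change in this design. Dropping the filter cannot either, since all 50 rows pass it, and the block cannot move the difference of a mean log2 ratio. These values were therefore fixed in advance and count among the 264. Of the 273, 27 had another sign than the main value, in 9 of 17 summary results. Among them were the constitutive catalytic subunits (-0.25, or 0.013 without Control replicate 1), the core assembly factors (-0.18, or 0.070 with library weights), the alpha subunits (0.040, or -0.099 without Control replicate 2) and all 50 genes (0.0032, or -0.085 without Control replicate 2). The count over all genes was 0, except 2 with library weights, and 0 to 2 when each library was left out (2 without Control replicate 1). With the replicate block, which treats same-numbered libraries as paired, 0 genes were called, as in the main fit. Each replicate number occurs in both groups, so with all 6 libraries the block can change intervals and p-values but no fold change. The median of the 50, 0.0032, was therefore bound to stay. The median of the other activators and the inhibitor (0.064) was 0.0050 with equal medians, -0.021 with the length trend removed, -0.079 with library weights, -0.096 without Control replicate 1 in the block fit, and -0.12 to 0.094 when each library was left out. The pseudogene (-0.21) was at -0.042 without Control replicate 1 in the block fit, and the regulatory assembly factors (0.17) at 0.029 with the length trend removed. Single genes with another sign, none of which passed the threshold, follow as log2 fold changes. Equal medians gave Psmb7 -0.056, Psmc1 -0.055, Psmc2 -0.0064, Psmd11 -0.047 and Psmd9 -0.020. Removing the length trend gave Psma6 0.025, Psmb1 -0.0081, Psmb7 -0.055, Psmc2 -0.051, Psmc3ip 0.0055, Psmd11 -0.12 and Psmd9 -0.11. Library weights gave Psma3 0.064, Psma6 0.20, Psmc3ip 0.043, Psmd11 -0.070, Psme1 0.027, Psmg1 0.096, Psmg3 0.044, Pomp 0.041 and Tap1 -0.041. Quantile normalization gave Psmd11 -0.033 and Psmd9 -0.024. Without Control replicate 1 the block fit gave Psma3 0.026, Psma6 0.14, Psmd11 -0.097, Psmg1 0.049, Psmg3 0.020 and Tap1 -0.060. Leaving out each library gave the ranges Psma3 -0.19 to 0.021, Psma6 -0.24 to 0.14, Psmb6 -0.42 to 0.013, Psmb7 -0.11 to 0.15, Psmc1 -0.11 to 0.13, Psmc3ip -0.11 to 0.070, Psmd11 -0.13 to 0.10, Psmd2 -0.020 to 0.23, Psmd9 -0.035 to 0.13, Psme1 -0.31 to 0.098, Psmg1 -0.34 to 0.043, Irf1 -0.053 to 0.032, Nfe2l1 -0.017 to 0.26 and Pomp -0.31 to 0.0069. The cause was not tested. Without Control replicate 2 or 3 the median of all genes was 0.12, so values there are read against it. With 3 libraries per group and no read counts, the half-width of the interval had a median of 0.36 on the log2 scale, and 0.23 without Control replicate 1.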

Other observations

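The coefficient of variation (SD over mean of FPKM) was larger in the controls than with DOPAC in 46 of the 50 proteasome rows, with medians of 15.0% and 6.23%. Between Control replicates 2 and 3 alone the median was 7.91%. The share over all genes was not computed, and Control replicate 1 stood apart over the whole table, so this is not read as a trait of proteasome genes. The alpha subunits were the most uniform with DOPAC, at 2.70% against 17.95% in the controls. For the constitutive catalytic subunits the medians were 8.68% with DOPAC and 32.3% in the controls, but 8.25% between Control replicates 2 and 3, so that the contrast rests on Control replicate 1. For the alpha subunits the value between those 2 controls was 15.8%. For Psmb7, with 3 almost equal DOPAC values, the SD was 0.218 FPKM with DOPAC and 8.34 FPKM in the controls.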
